A study of Mus musculus with 18 samples.

Results

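The response of hepatocytes to 70% partial hepatectomy (PH) in the absence of hepatocyte Smoothened (Smo) was described as the difference, across all genes, between 2 libraries of Smo (-) hepatocytes isolated 48 h after PH (Smo (-) PH) and 2 libraries of quiescent Smo (-) hepatocytes. These 4 libraries, of 18 in the series, were all those labelled with the Cre virus. Each was a poly(A) RNA-seq library of hepatocytes isolated by collagenase perfusion, counted over 31053 genes. The mice were males on a C57BL/6J background with floxed Smo alleles (Smo tm2Amc/J), labelled as 3 months old. The Smo (-) mice received AAV8-TBG-Cre, a virus in which the thyroxine-binding globulin promoter limits Cre to hepatocytes, so other liver cells are taken to keep Smo. The Smo (+) mice of the same table carried the same floxed alleles, received AAV8-TBG-Luc and gave 1 library at 0 h and 1 at 48 h. PH followed 7 days after virus. The Young mice of the other count table (wild-type C57BL/6J, 3 months, no virus) gave 3 libraries at each time and were used only to show where the Smo (-) response differed. The libraries held all cells of each isolate, so for every gene fewer cells of a type and less RNA per cell cannot be told apart.

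Hedgehog ligands bind Patched, which in the absence of ligand holds Smo inactive. Active Smo signals through the GLI transcription factors, whose targets include Ptch1, Gli1 and Hhip, in part from the primary cilium. After PH the remaining hepatocytes leave quiescence, replicate their DNA and divide while the liver goes on making plasma proteins and bile acids. E2F factors drive genes of the G1/S transition and DNA replication, and the MuvB, B-Myb and Foxm1 complexes drive genes of mitosis.

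The 6 libraries of the Smo table held 16835686 to 19151731 counts in genes, and the 6 Young libraries 31729517 to 36646939. Across genes tested, the log2 levels of the 2 Smo (-) PH libraries correlated with r = 0.9862 and those of the 2 quiescent libraries with r = 0.9798, and both pairs differed by more than sampling noise (chi-square per degree of freedom 30.3 and 56.5). Levels are CPM, counts scaled to a common library size after TMM normalisation. Changes are on the log2 scale, PH over quiescent, each with a standard error (SE), and come from edgeR's quasi-likelihood test. A gene was called where its p, adjusted by Benjamini-Hochberg over the 13654 genes tested, was under 0.05. The Smo (+) library at 0 h stood apart, with 22.5% of its counts in mitochondrial genome genes against 3.32% to 6.85% in the other 5 libraries of the table. Alb, which encodes albumin, took 4.45% to 6.43% of counts in the 4 Smo (-) libraries, and the 10 hepatocyte markers summed to 77504 to 88207 CPM in them. The 2 quiescent and the 2 regenerating sums overlapped. The protocol counts 2 Cre mice at each time, so each library was taken as 1 mouse. The p-values rest on the spread between 2 mice a side, moderated with that of all genes (2 residual and 7.46 prior degrees of freedom). With 2 libraries against 2, an exact permutation test of a single value cannot give a two-sided p below 0.333.

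Smo stood at 1.42 and 3.29 CPM in the quiescent Smo (-) libraries and at 1.51 and 1.198 CPM in the Smo (-) PH libraries. The Smo (+) libraries held 6.17 CPM at 0 h and 11.004 CPM at 48 h, so all 4 Smo (-) libraries lay below both Smo (+) libraries. The change of Smo with PH in Smo (-) was not called (log2 change -0.79 with SE 0.43, adjusted p = 0.196), but it was without quiescent replicate 1 (-1.28, adjusted p = 0.0232). The Smo count sums the whole gene and so does not separate transcripts that still carry the deleted part.

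Of 22 Hedgehog core pathway genes, 14 passed the low-count filter, 0 rose and 2 fell, beside 16.0% of all genes tested called higher and 14.2% called lower. Ptch1, the receptor that restrains Smo and itself a GLI target, stood at 52.6 and 34.4 CPM before and 21.2 and 22.4 CPM after PH (log2 change -0.995 with SE 0.21, adjusted p = 0.00629). Gas1, a co-receptor that assists ligand binding, went from 18.9 and 33.4 CPM to 6.64 and 7.19 CPM (log2 change -1.92 with SE 0.27, adjusted p = 0.00091). For both genes each PH library lay below each quiescent library. The Smo (+) libraries held Ptch1 at 39.1 CPM at 0 h and 24.6 CPM at 48 h. In Young 1 of 17 core genes tested rose and 4 fell, beside 19.7% and 21.5% of all genes. The response was called different from that of Young for 0 of the 17, beside 9.96% of all genes. Ihh, the Indian hedgehog ligand, held 9.79 and 13.4 CPM and then 11.7 and 7.78 CPM, and the groups overlapped (adjusted p = 0.506). Shh, the Sonic hedgehog ligand, held 0.566 and 0.427 CPM and then 0.201 and 0.507 CPM, and its change was not called (adjusted p = 0.713). Gli1, Gli2, Gli3 and Hhip did not reach the count minimum. Of 14 Hedgehog target genes tested, 4 were called higher, but 2 without quiescent replicate 1. They included Ccnd1 and Foxm1, which also belong to the cell cycle lists. Bcl2, which protects from apoptosis, rose from 0.736 and 0.792 CPM to 1.86 and 1.93 CPM (log2 change 1.31 with SE 0.44, adjusted p = 0.0478), and the call was lost on leaving out any 1 of the 4 libraries (adjusted p 0.0723 to 0.236). Among 33 primary cilium genes 2 rose and 2 fell, counts that went to 1 and 1 without either PH library. Ift172, a subunit of the intraflagellar transport complex, was called lower in every leave-out fit, at 26.9 and 26.1 CPM before and 14.8 and 15.02 CPM after PH (log2 change -0.83 with SE 0.16, adjusted p = 0.00494).

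Across the genome 2180 genes rose and 1944 fell at 48 h in the absence of hepatocyte Smo, 30.2% of the genes tested. The rises reached further than the falls. Of the genes that rose, 1390 had a log2 fold change above 1 and 380 above 3, whereas 821 of those that fell lay below -1 and 57 below -3. The median over all genes was 0.00695. Both PH libraries lay above both quiescent libraries for 34.8% of genes and below them for 32.8%. Leaving out Smo (-) PH replicate 2 left 1364 higher and 1118 lower genes, and leaving out Smo (-) PH replicate 1 left 1578 and 1225. Of 309 called genes checked one by one, all those named in the text among them, 241 kept their call whichever of the 4 libraries was left out.

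**Figure D1:**
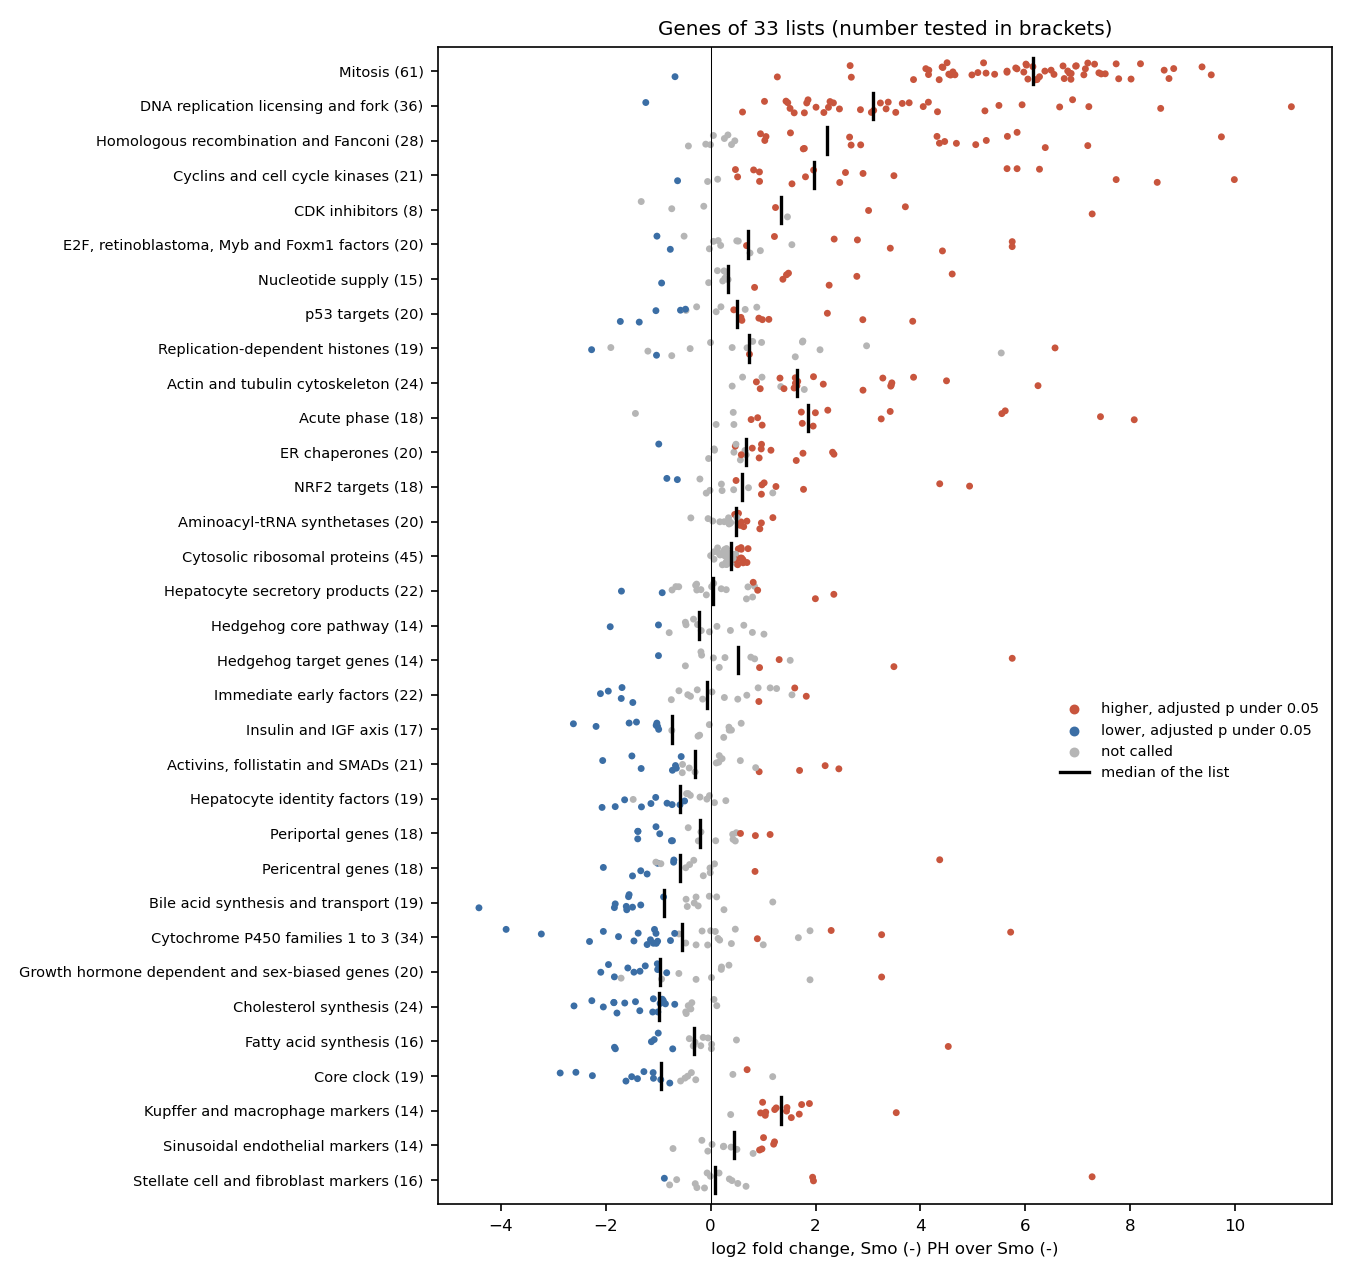
Genes called higher, called lower and not called in Smo (-) PH against quiescent Smo (-), as points at their log2 fold change, 1 line per list with its number of genes tested and a bar at its median. The medians of Mitosis (60 of 61 higher) and DNA replication licensing and fork (35 of 36 higher) lie furthest to the right, that of Cholesterol synthesis (17 of 24 lower) lies near -1, and fitted values of genes at 0 in quiescence depend on the prior count.

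Genes of the cell cycle engine rose together, with counts to be read beside 16.0% of all genes called higher and 14.2% called lower. Ccnd1, cyclin D1 of the G1 phase, stood at 20.3 and 10.7 CPM in quiescent libraries and 156 and 193 CPM in PH libraries (log2 change 3.49 with SE 0.29, adjusted p = 3.86e-05). Of 21 cyclins and cell cycle kinases 18 rose and 1 fell. Ccna2, cyclin A2 of S phase and G2, went from 0.1698 and 0.6703 CPM to 28.8 and 19.3 CPM (log2 change 5.84 with SE 0.42, adjusted p = 2.01e-05). Cdk1, the kinase that drives entry into mitosis, went from 0.849 and 0.366 CPM to 35.9 and 26.6 CPM (log2 change 5.65 with SE 0.34, adjusted p = 7.68e-06). In all of these both PH libraries lay far above both quiescent libraries. Wee1, the kinase that restrains Cdk1, moved the other way, from 54.2 and 40.5 CPM to 31.2 and 29.9 CPM (log2 change -0.63 with SE 0.17, adjusted p = 0.0236). The call of Wee1 was lost without quiescent replicate 1 (adjusted p = 0.064), without PH replicate 1 (0.0702) and without PH replicate 2 (0.116). Among the E2F, retinoblastoma, Myb and Foxm1 factors 8 of 20 rose and 2 fell (1 without PH replicate 2). Foxm1, which drives genes of G2 and mitosis, went from 0.283 and 0.427 CPM to 21.8 and 16.9 CPM (log2 change 5.75 with SE 0.33, adjusted p = 6.14e-06). E2f1 went from 5.55 and 5.67 CPM to 39.3 and 38.8 CPM (log2 change 2.798 with SE 0.17, adjusted p = 8.76e-06).

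Of 36 genes of DNA replication licensing and the fork, 35 rose and 1 fell, beside 16.0% and 14.2% of all genes. The median log2 fold change was 3.09. In Young hepatocytes 35 of the 36 were called higher, beside 19.7% of the 15038 genes tested there. Mcm5, a subunit of the replicative helicase, stood at 1.53 and 1.89 CPM before and 77.5 and 76.97 CPM after PH (log2 change 5.496 with SE 0.20, adjusted p = 8.26e-07). Cdc6, which loads that helicase onto origins, rose from 0.0566 and 0.183 CPM to 18.6 and 18.2 CPM (log2 change 7.21 with SE 0.38, adjusted p = 4.86e-06). Uhrf1, which carries DNA methylation over to the new strand, rose from 0.623 and 0.914 CPM to 75.2 and 80.1 CPM (log2 change 6.65 with SE 0.23, adjusted p = 8.26e-07). The groups did not overlap for any of these 3 genes. Dtl, which directs licensing factors to degradation in S phase, had no count in either quiescent library and 16.002 and 13.8 CPM after PH, at least 169-fold higher against a floor of 3 counts over the 2 quiescent libraries. Orc1, of the origin recognition complex, was likewise at 0 and then at 2.62 and 2.67 CPM, at least 30.03-fold higher. Mcm10, a replication initiation factor, was the exception, at 188 and 129.7 CPM before and 84.7 and 50.4 CPM after PH (log2 change -1.24 with SE 0.26, adjusted p = 0.00714).

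Of 61 mitosis genes, 60 rose, and the same number was called in each of the 4 leave-out fits. Over all genes tested 16.0% were called higher. The list's median log2 fold change was 6.14, or 5.97 with the 4 genes at 0 in both quiescent libraries set at their lower bound. It was 5.48 in Young and 5.14 in the single pair of Smo (+) libraries. Mki67, the Ki-67 antigen of cycling cells, stood at 0.453 and 0.792 CPM in quiescent libraries and at 115 and 84.3 CPM after PH (log2 change 7.32 with SE 0.30, adjusted p = 1.31e-06). Top2a, which untangles sister chromatids, went from 0.3397 and 0.792 CPM to 51.8 and 41.96 CPM (log2 change 6.37 with SE 0.30, adjusted p = 3.36e-06). Hmmr, a spindle protein, had no count in quiescent replicate 1, 0.122 CPM in replicate 2, and 33.6 and 22.5 CPM after PH (log2 change 8.74 with SE 0.51, adjusted p = 6.78e-06). Ccnb1, the mitotic cyclin B1, went from 0.283 and 0 CPM to 43.6 and 21.6 CPM (log2 change 7.73 with SE 0.61, adjusted p = 3.09e-05). PH replicate 1 was the higher of the pair for all 4 of these genes, whereas it was the higher library for 897 of the 2180 genes called higher. Ndc80, of the outer kinetochore, was at 0 in both quiescent libraries and 5.69 and 4.65 CPM after PH, at least 58.7-fold higher. Bub1, a spindle checkpoint kinase, had risen at least 52.03-fold to 5.94 and 3.22 CPM, and Sgo1, which guards centromeric cohesion, at least 35.7-fold to 3.57 and 2.72 CPM. Pttg1, the securin that holds back separase, was the 1 gene called lower, at 20.7 and 21.2 CPM and then 14.6 and 11.6 CPM (log2 change -0.68 with SE 0.19, adjusted p = 0.023), and that call was lost without PH replicate 2 (adjusted p = 0.275).

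**Figure D2:**
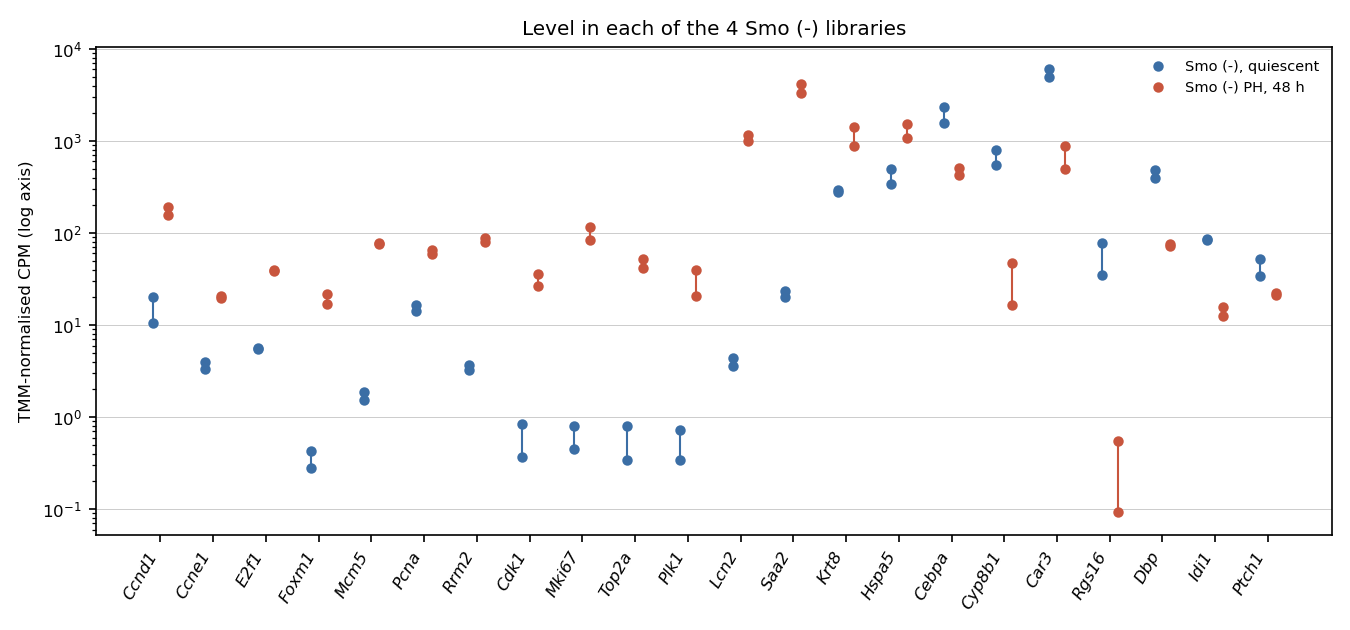
Normalised level in each of the 4 Smo (-) libraries, in CPM on a log axis, for named genes from the cell cycle on the left to metabolism, clock and Hedgehog on the right, with 1 point a library and a line joining the 2 libraries of a group. No pair of groups overlaps, and Mki67 lies at 0.453 and 0.792 CPM in quiescent and 115 and 84.3 CPM in PH libraries.

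Promoters are shown, with the words that factors of the cell cycle read in them, for the 3 genes of each of these lists with the largest fitted log2 change and a sequence in the table. For all but Cdc6 among them the fitted change depends on the prior count, since both quiescent libraries were at 0, so this order is no ranking of the true rises. Each is 300 bases of mouse GRCm38.p6, from 250 before to 50 after the RefSeq start site, written 5′ to 3′ on the strand of the gene. Capitals mark CHR words (TTTGAA or TTTAAA or CTTGAA or TTCGAA, the element bound by MuvB complexes), the CCAAT box bound by NF-Y, and E2F words (TTTGGCGC or TTTCCCGC or TTTGCCGC or TTTCGCGC), each on either strand. Of the mitosis genes, Ndc80 is at chr17:71526808-71527107, minus strand, Bub1 at chr2:127831810-127832109, minus strand and Sgo1 at chr17:53689266-53689565, minus strand. Of the replication genes, Dtl is at chr1:191575495-191575794, minus strand, Orc1 at chr4:108579204-108579503, plus strand and Cdc6 at chr11:98907901-98908200, plus strand.
Ndc80: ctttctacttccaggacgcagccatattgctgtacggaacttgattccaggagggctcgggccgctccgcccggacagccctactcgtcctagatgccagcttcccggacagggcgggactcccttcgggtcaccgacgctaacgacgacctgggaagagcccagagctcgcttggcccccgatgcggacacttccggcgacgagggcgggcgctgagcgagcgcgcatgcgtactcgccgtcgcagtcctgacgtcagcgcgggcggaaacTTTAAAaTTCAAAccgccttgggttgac
Bub1: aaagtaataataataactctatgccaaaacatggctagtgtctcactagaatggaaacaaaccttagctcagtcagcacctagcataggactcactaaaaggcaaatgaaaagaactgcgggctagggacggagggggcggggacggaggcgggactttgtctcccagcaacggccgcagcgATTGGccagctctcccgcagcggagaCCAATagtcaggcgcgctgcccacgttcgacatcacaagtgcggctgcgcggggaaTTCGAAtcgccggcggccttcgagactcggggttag
Sgo1: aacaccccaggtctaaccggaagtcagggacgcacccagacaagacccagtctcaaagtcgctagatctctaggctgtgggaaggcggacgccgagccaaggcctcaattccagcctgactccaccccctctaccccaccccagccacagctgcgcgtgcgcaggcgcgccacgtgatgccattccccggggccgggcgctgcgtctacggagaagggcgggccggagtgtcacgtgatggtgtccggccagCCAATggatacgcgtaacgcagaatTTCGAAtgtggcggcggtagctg
Dtl: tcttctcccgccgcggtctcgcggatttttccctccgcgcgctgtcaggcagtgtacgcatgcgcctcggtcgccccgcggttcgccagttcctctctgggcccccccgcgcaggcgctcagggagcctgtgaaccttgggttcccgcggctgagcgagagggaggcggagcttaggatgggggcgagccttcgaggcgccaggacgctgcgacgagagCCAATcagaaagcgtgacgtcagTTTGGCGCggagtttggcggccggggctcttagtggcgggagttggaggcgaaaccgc
Orc1: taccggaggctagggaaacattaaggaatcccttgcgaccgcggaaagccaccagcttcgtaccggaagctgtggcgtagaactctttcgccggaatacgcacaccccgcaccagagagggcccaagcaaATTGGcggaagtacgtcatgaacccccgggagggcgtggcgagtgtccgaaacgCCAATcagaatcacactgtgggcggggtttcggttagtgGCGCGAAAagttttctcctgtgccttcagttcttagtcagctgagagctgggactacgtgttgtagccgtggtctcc
Cdc6: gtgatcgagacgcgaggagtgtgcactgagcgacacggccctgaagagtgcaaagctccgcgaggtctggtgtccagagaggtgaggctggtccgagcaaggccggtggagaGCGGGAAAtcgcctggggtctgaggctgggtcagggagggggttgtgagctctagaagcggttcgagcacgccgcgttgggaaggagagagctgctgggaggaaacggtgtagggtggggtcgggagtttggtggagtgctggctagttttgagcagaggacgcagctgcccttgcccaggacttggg

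All 3 mitosis promoters held a CHR word between 15 and 35 bases past the start site and none held an E2F word. All 3 replication promoters held an E2F word before the start site (at -8 in Dtl, -27 in Orc1 and -138 in Cdc6, counted to the first base of the word) and none held a CHR word. Over the lists, 44 of the 51 mitosis genes with a promoter in the table held a CHR word (86.3%), and 9 of 28 replication genes did (32.1%). E2F words were in 3 mitosis promoters (5.88%) and 13 replication promoters (46.4%), and CCAAT was in 72.5% and 67.9%. Among all 27025 promoters of this length the shares were 37.6% for CHR words, 2.32% for E2F words and 37.9% for CCAAT. Among the 10434 promoters of genes tested they were 28.4%, 3.98% and 38.9%. These are matches of letters in a fixed window and do not show binding.

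Genes that supply and repair DNA followed, with counts to be read beside 16.0% of all genes called higher and 14.2% called lower. Rrm2, the regulated subunit of ribonucleotide reductase, rose from 3.23 and 3.66 CPM to 79.1 and 88.6 CPM (log2 change 4.61 with SE 0.19, adjusted p = 1.31e-06). Among 15 nucleotide supply genes 7 rose and 1 fell. Of 28 genes of homologous recombination and the Fanconi pathway 20 rose and none fell, with a median log2 fold change of 2.22. Brca1 rose from 0.793 and 0.6703 CPM to 14.4 and 18.1 CPM (log2 change 4.46 with SE 0.29, adjusted p = 1.02e-05). Of 19 replication-dependent histones tested 2 were called higher and 2 lower, the latter 0 without PH replicate 2, and in Young hepatocytes 26 of 27 tested were higher. Their response was called lower than in Young for 7 of the 27, beside 4.39% of all genes. Most histone transcripts of this class lack a poly(A) tail, so the poly(A) libraries of both tables sample them poorly. The Young libraries also held 25.2% to 33.9% of pairs outside genes, against 4.26% to 6.61% in Smo (-). The part of this in the histone difference was not tested.

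Some inhibitors of the cycle rose alongside, with counts to be read beside 16.0% of all genes called higher and 14.2% called lower. Of 8 CDK inhibitors 4 were called higher and none lower. Cdkn1a, the p21 inhibitor and a p53 target, stood at 11.4 and 3.78 CPM before and 61.99 and 60.9 CPM after PH (log2 change 3.01 with SE 0.38, adjusted p = 0.000418). The p53 target list split, with 9 of 20 higher and 5 lower, the latter 3 without PH replicate 1 and 3 without PH replicate 2. Tnfrsf10b, a death receptor, rose from 0.3397 and 0.487 CPM to 5.48 and 6.59 CPM (log2 change 3.85 with SE 0.40, adjusted p = 0.000157). Gadd45a, a growth arrest and stress protein, fell from 29.4 and 29.3 CPM to 11.6 and 11.3 CPM (log2 change -1.36 with SE 0.16, adjusted p = 0.000314). It rose in Young (log2 fold change 1.44), and the difference of the responses was called (-2.803, SE 0.45, adjusted p = 0.00306).

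Immediate early factors, which are induced within minutes to hours of a stimulus, had 3 of 22 higher and 5 lower at 48 h, beside 16.0% and 14.2% of all genes, so these shares were near the background. Btg2, which restrains proliferation, was among those that rose, from 21.1 and 15.9 CPM to 37.7 and 32.3 CPM (log2 change 0.92 with SE 0.19, adjusted p = 0.00563). Zfp36, which destabilises inflammatory transcripts, went from 166 and 189 CPM to 42.6 and 39.9 CPM (log2 change -2.101 with SE 0.16, adjusted p = 2.70e-05). Junb went from 228 and 241 CPM to 58.8 and 62.4 CPM (log2 change -1.95 with SE 0.16, adjusted p = 3.77e-05), and Jun from 257 and 243 CPM to 105 and 73.6 CPM (log2 change -1.48 with SE 0.20, adjusted p = 0.000618). Jun, Junb and Zfp36 stood lower in the Smo (+) library at 0 h, at 41.6, 70.1 and 50.8 CPM, than in both quiescent Smo (-) libraries.

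The counts of the signalling lists stand beside 16.0% of all genes called higher and 14.2% called lower. Osmr, the oncostatin M receptor that signals through STAT3, rose from 0.962 and 1.402 CPM to 9.16 and 11.8 CPM (log2 change 3.15 with SE 0.31, adjusted p = 0.000125). Stat3 itself rose from 126 and 96.04 CPM to 189.8 and 197 CPM (log2 change 0.801 with SE 0.18, adjusted p = 0.00898). They were the 2 members called higher among 17 genes of IL6, STAT3 and SOCS signalling, where 4 fell. Inhba, the activin A subunit that restrains hepatocyte growth, rose from 6.91 and 4.27 CPM to 17.9 and 18.4 CPM (log2 change 1.695 with SE 0.25, adjusted p = 0.000978). Its antagonist Fst, follistatin, rose from 1.25 and 2.99 CPM to 9.56 and 9.58 CPM (log2 change 2.18 with SE 0.36, adjusted p = 0.0021). Smad7, which inhibits TGF-beta receptors, fell from 35.2 and 43.6 CPM to 10.3 and 8.66 CPM (log2 change -2.06 with SE 0.19, adjusted p = 7.46e-05). Of 11 EGF and HGF ligands and receptors 1 was called higher, 0 without PH replicate 2, and 2 lower. In the list of activins, follistatin and SMADs 4 of 21 genes rose and 7 fell, the latter 4 without PH replicate 2. Of 17 genes of the insulin and IGF axis none rose and 8 fell. Irs2, an insulin receptor substrate, fell from 101 and 43.996 CPM to 10.7 and 12.9 CPM (log2 change -2.62 with SE 0.34, adjusted p = 0.000505), and Ghr, the growth hormone receptor, from 701 and 636 CPM to 275 and 226 CPM (log2 change -1.41 with SE 0.19, adjusted p = 0.000655).

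Acute phase genes were among the strongest rises. Of 18 tested, 14 rose and none fell, with a median log2 fold change of 1.85. Lcn2, lipocalin 2, which sequesters bacterial siderophores, stood at 4.36 and 3.595 CPM before PH and 1159.7 and 994 CPM after it, 269.9-fold higher (log2 change 8.08 with SE 0.27, adjusted p = 8.26e-07). Saa2 and Saa1 encode serum amyloid A. Saa2 went from 23.4 and 20.2 CPM to 4220.4 and 3308 CPM (log2 change 7.43 with SE 0.32, adjusted p = 1.56e-06), and Saa1 from 89.7 and 81.5 CPM to 4796 and 3608 CPM (log2 change 5.62 with SE 0.30, adjusted p = 5.19e-06). Orm2, an orosomucoid, rose from 7.42 and 8.105 CPM to 249 and 479.6 CPM (log2 change 5.55 with SE 0.33, adjusted p = 7.68e-06). Hpx, the heme carrier hemopexin, went from 2492 and 3049.8 CPM to 15518 and 12709 CPM (log2 change 2.35 with SE 0.32, adjusted p = 0.000658). The groups were well apart for each of these. Of all genes tested 16.0% were called higher and 14.2% lower. The list of hepatocyte secretory products had 4 of 22 higher and 2 lower, with a median log2 fold change of 0.0378. The 4 were Hpx, which is on this list and not on the acute phase list, and Hp, Fgb and Fgg. Hp and Fgb are on both lists. Both counts shrank without PH replicate 2. The higher count also shrank without quiescent replicate 1 and without PH replicate 1, and the lower count without quiescent replicate 2. Afp, alpha-fetoprotein of the fetal liver, rose from 2.55 and 2.56 CPM to 7.9002 and 11.7 CPM (log2 change 1.94 with SE 0.29, adjusted p = 0.00123).

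**Figure D3:**
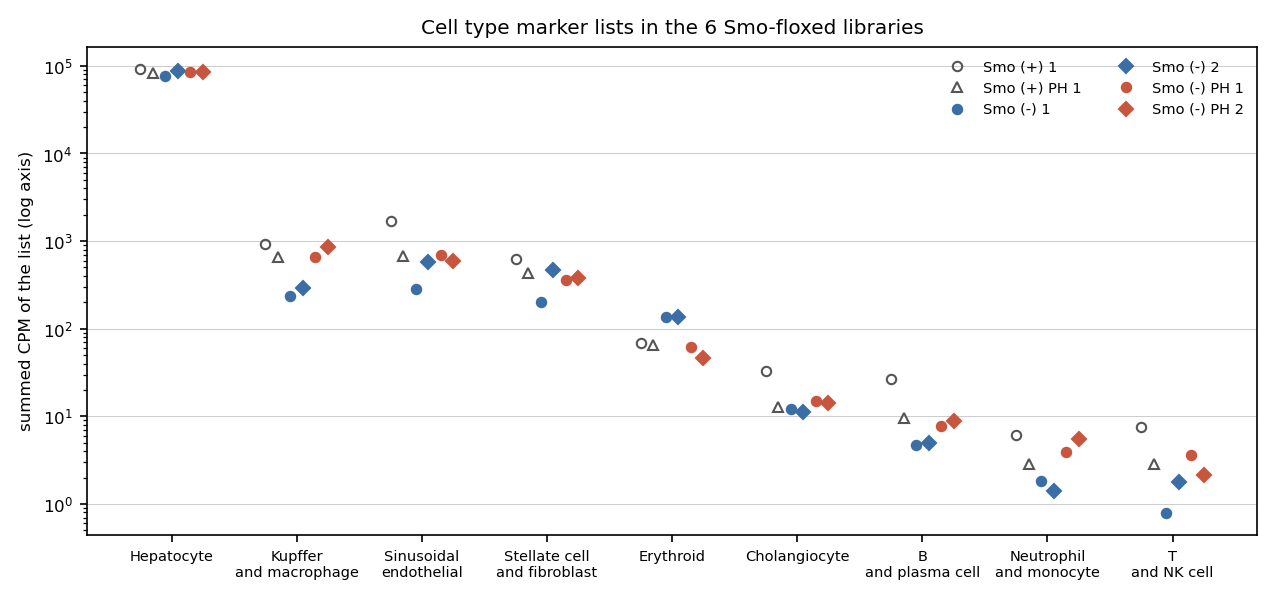
Summed CPM of the marker list of each cell type, on a log axis, with 1 point for each of the 6 libraries of the Smo table (Smo (+) open, Smo (-) filled, PH in red). Hepatocyte markers lie at 77504 to 88207 CPM in the 4 Smo (-) libraries, and Kupffer and macrophage markers lie at 239.5 and 291 CPM in quiescent and 657 and 854 CPM in PH libraries.

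Markers of macrophages rose with the acute phase genes. Of 14 Kupffer and macrophage markers 13 rose, 13 in each leave-out fit, and their sum went from 239.5 and 291 CPM to 657 and 854 CPM. Marco, a scavenger receptor, went from 1.87 and 2.19 CPM to 17.2 and 30.1 CPM (log2 change 3.54 with SE 0.31, adjusted p = 6.15e-05). Vsig4, a complement receptor of Kupffer cells, went from 4.64 and 5.73 CPM to 14.2 and 14.2 CPM (log2 change 1.46 with SE 0.21, adjusted p = 0.000939). The Smo (+) libraries ran the other way, at 925 CPM at 0 h and 654 CPM at 48 h. For sinusoidal endothelial markers 5 of 14 were called higher, 8 without quiescent replicate 2, and their sums overlapped (282 and 576 CPM before, 691 and 593 CPM after). Stellate cell and fibroblast markers had 3 of 16 higher (9 without quiescent replicate 2), and their sums also overlapped, at 204 and 471 CPM and then 356 and 379 CPM. Quiescent replicate 1 was the lower library of its pair for each of these sums. The counts of called markers stand beside 16.0% of all genes called higher. Among lymphoid, cholangiocyte and erythroid markers Cd3e, Klrb1c, Cftr and Epb42 were at 0 in all 4 Smo (-) libraries. Other members were called higher: Thy1 (1 of 3 T and NK markers tested), Ighm and Igkc (2 of 7 B and plasma) and Krt19 (1 of 9 cholangiocyte). Each of these calls was lost in at least 1 alternative fit. Erythroid markers summed to 135 and 137 CPM before and 61.5 and 46.9 CPM after PH. The part of these cells in any single gene's change was not tested. Prtn3, proteinase 3 of myeloid granules, had the greatest fitted rise of the genes at 20 CPM or more. It went from 0.0566 and 0.0609 CPM to 20.7 and 37.6 CPM (log2 change 8.796 with SE 0.52, adjusted p = 7.68e-06). The 14 neutrophil and monocyte markers summed to 1.81 and 1.402 CPM before and 3.87 and 5.48 CPM after PH. Among the 8 of them tested 1 was called higher, Elane (fitted log2 change 6.49), a call lost in at least 1 alternative fit. Cxcl14, a chemokine, rose from 0.113 and 0.122 CPM to 23.95 and 40.4 CPM (log2 change 8.02 with SE 0.44, adjusted p = 5.77e-06).

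Cytoskeletal genes rose as a group. Of 24 actin and tubulin genes 19 rose and none fell, beside 16.0% of all genes called higher and 14.2% called lower. The median log2 fold change was 1.65. Stmn1, stathmin, which destabilises microtubules, rose from 3.79 and 2.99 CPM to 80.5 and 73.2 CPM (log2 change 4.497 with SE 0.19, adjusted p = 1.56e-06). Tuba1b, an alpha-tubulin, rose from 6.57 and 10.6 CPM to 71.5 and 56.9 CPM (log2 change 2.905 with SE 0.24, adjusted p = 3.77e-05). The keratins of hepatocyte intermediate filaments rose too, Krt8 from 293 and 283 CPM to 886 and 1417 CPM (log2 change 1.9997 with SE 0.25, adjusted p = 0.000397) and Krt18 from 167 and 168 CPM to 683 and 1005 CPM (log2 change 2.33 with SE 0.22, adjusted p = 0.000107).

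Genes that define hepatocyte identity fell in part. None of 19 hepatocyte identity factors rose and 10 fell, beside 16.0% of all genes called higher and 14.2% called lower. The median log2 fold change was -0.58. Cebpa, a factor of differentiated, non-dividing hepatocytes, went from 2332 and 1573 CPM to 423 and 506 CPM (log2 change -2.07 with SE 0.25, adjusted p = 0.000371). Nr1i3, the xenobiotic receptor CAR, fell from 35.6 and 43.8 CPM to 11.7 and 10.7 CPM (log2 change -1.82 with SE 0.18, adjusted p = 0.00011), and Ppara, the receptor that drives fat oxidation, from 243 and 174 CPM to 49.7 and 83.97 CPM (log2 change -1.64 with SE 0.26, adjusted p = 0.00156). Hnf4a, the central factor of the network, was not called, at 612 and 637 CPM before and 623 and 689.7 CPM after PH (log2 fold change 0.0728, adjusted p = 0.803).

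Genes of drug and steroid metabolism fell in part. The counts of the lists in this paragraph stand beside 16.0% of all genes called higher and 14.2% called lower. Of 34 cytochrome P450 genes of families 1 to 3, 16 fell and 4 rose. Cyp2e1, a pericentral enzyme that oxidises ethanol, stood at 7407 and 6904 CPM before and 2043 and 1423 CPM after PH (log2 change -2.05 with SE 0.29, adjusted p = 0.000902). Cyp2c37 went from 86.6 and 53.3 CPM to 5.23 and 4.15 CPM (log2 change -3.8997 with SE 0.26, adjusted p = 1.35e-05). Growth hormone dependent and sex-biased genes had 10 of 20 lower and 1 higher. Mup7, a major urinary protein whose reads can be shared with near-identical copies, went from 207 and 343 CPM to 129 and 87.3 CPM (log2 change -1.35 with SE 0.27, adjusted p = 0.00512). Gstm3, a glutathione transferase listed with pericentral and NRF2 target genes, moved against these, from 106 and 73.98 CPM to 1421 and 2287 CPM (log2 change 4.37 with SE 0.31, adjusted p = 1.78e-05). Among 18 NRF2 targets 8 rose and 2 fell, the latter 0 without quiescent replicate 1, 0 without PH replicate 1 and 1 without PH replicate 2. Of 24 PPAR alpha targets of fat oxidation 5 rose and 5 fell, 2 and 2 without PH replicate 2. Acot1, an acyl-CoA thioesterase, rose from 9.79 and 13.6 CPM to 43.1 and 45.8 CPM (log2 change 1.93 with SE 0.19, adjusted p = 0.000129). Acaa1b, a peroxisomal thiolase, fell from 812 and 749.9 CPM to 266 and 226 CPM (log2 change -1.67 with SE 0.19, adjusted p = 0.000263).

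Of 19 genes of bile acid synthesis and transport none rose and 10 fell, beside 16.0% of all genes called higher and 14.2% called lower. Cyp8b1, which directs synthesis to cholic acid, showed the greatest fall, from 551 and 803 CPM to 47.05 and 16.4 CPM, 21.4-fold lower (log2 change -4.42 with SE 0.45, adjusted p = 0.000145). Cyp7a1, the rate-limiting enzyme of the pathway, fell from 72.2 and 93.8 CPM to 36.4 and 29.5 CPM (log2 change -1.33 with SE 0.19, adjusted p = 0.000835). Slc10a1, the main uptake transporter of bile salts, fell from 568 and 582 CPM to 228 and 151 CPM (log2 change -1.5997 with SE 0.22, adjusted p = 0.000765). Cyp7a1 rose in Young hepatocytes (log2 fold change 1.68), and the responses differed (-3.01, SE 0.47, adjusted p = 0.00251).

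Most genes of cholesterol synthesis fell, beside 14.2% of all genes called lower and 16.0% called higher. Of 24 genes 17 fell and none rose, 22 had both PH libraries below both quiescent ones (32.8% of all genes did), and the count was 14 to 22 in the leave-out fits. The median log2 fold change was -0.99. Idi1, which isomerises isopentenyl diphosphate, went from 86.96 and 84.2 CPM to 15.7 and 12.4 CPM (log2 change -2.61 with SE 0.17, adjusted p = 1.28e-05). Msmo1, a sterol demethylase, went from 182 and 261 CPM to 55.5 and 36.6 CPM (log2 change -2.27 with SE 0.25, adjusted p = 0.000203). Hmgcs1, the enzyme before HMG-CoA reductase, fell from 231 and 203 CPM to 71.7 and 54.3 CPM (log2 change -1.79 with SE 0.19, adjusted p = 0.000164). In each, both PH libraries lay far below. The list's median was -0.125 in Young, and the Smo (-) response was called lower than that of Young for 7 of 24 genes and lower than that of Smo (+) for 12, beside 4.39% and 6.14% of all genes. Fatty acid synthesis had 6 of 16 lower and 1 higher. Acss2, which makes acetyl-CoA from acetate, fell from 159 and 162 CPM to 49.01 and 40.996 CPM (log2 change -1.83 with SE 0.16, adjusted p = 6.90e-05).

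Sugar and amino acid metabolism moved in both directions, with counts to be read beside 16.0% of all genes called higher and 14.2% called lower. Of 19 glycolysis genes 8 rose and 2 fell, counts that were 5 and 1 without PH replicate 2. Ldha, lactate dehydrogenase A, rose from 491 and 421 CPM to 1526 and 1582 CPM (log2 change 1.77 with SE 0.21, adjusted p = 0.000292). Pkm, the pyruvate kinase of growing tissues, rose from 13.5 and 14.9 CPM to 32.3 and 40.6 CPM (log2 change 1.36 with SE 0.17, adjusted p = 0.000476), while Pklr, the liver form, fell from 116 and 114 CPM to 39.9 and 30.7 CPM (log2 change -1.701 with SE 0.17, adjusted p = 0.000139). The methionine and one-carbon list had 8 of 18 lower and 2 higher, with 3 lower without PH replicate 2 and 1 higher without PH replicate 1. Ahcy, which hydrolyses S-adenosylhomocysteine, fell from 1485 and 1231 CPM to 344 and 345 CPM (log2 change -1.98 with SE 0.20, adjusted p = 0.000144). Mthfd2, a mitochondrial folate enzyme of dividing cells, rose from 0.5095 and 0.792 CPM to 7.25 and 6.82 CPM (log2 change 3.43 with SE 0.37, adjusted p = 0.000179). None of the 13 mitochondrial genome genes tested was called, with a range of -2.14 to 0.498, and none of 31 proteasome subunits was.

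Many chaperones of the endoplasmic reticulum (ER) rose. Of 20, 11 rose and 1 fell, with a median log2 fold change of 0.67, and 7 rose without PH replicate 2. Hspa5, the BiP chaperone, stood at 344 and 496 CPM before and 1075 and 1530.5 CPM after PH (log2 change 1.63 with SE 0.26, adjusted p = 0.00166). Manf, a secreted ER stress protein, rose from 21.9 and 36.99 CPM to 133 and 167 CPM (log2 change 2.35 with SE 0.25, adjusted p = 0.000166). Herpud1, of the ER degradation complex, was the 1 gene called lower, at 305 and 399.6 CPM and then 162 and 193 CPM (log2 change -0.99 with SE 0.19, adjusted p = 0.00497). The list's median was -0.172 in Young, and the Smo (-) response was called higher than that of Young for 12 of 20, beside 5.57% of all genes. Against the virus-matched Smo (+) pair 0 of the 20 were called higher and 0 lower. Of 45 cytosolic ribosomal proteins 13 rose, a count that was 2 without PH replicate 1, 0 without PH replicate 2 and 5 without quiescent replicate 2. Of 34 ribosome biogenesis genes 6 rose (17.6%), near the 16.0% of all genes called higher. Nop58, a snoRNP core protein, was one, at 10.1 and 10.8 CPM and then 33.4 and 25.7 CPM (log2 change 1.503 with SE 0.19, adjusted p = 0.000461).

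Of 19 core clock genes 11 were called lower and 1 higher, with 10 to 12 lower in the leave-out fits. For comparison, 14.2% of all genes tested were called lower and 16.0% higher. Clock transcripts cycle over the day, and the hour at which livers were collected is not given in the sources used here. Hour of harvest and PH thus cannot be told apart for these genes, nor for any gene outside the list that varies over the day. Dbp, a clock-driven bZIP factor, stood at 485 and 398 CPM before and 71.9 and 76.9 CPM after PH (log2 change -2.57 with SE 0.19, adjusted p = 1.91e-05). Nr1d1, the repressor REV-ERB alpha, fell from 237 and 146 CPM to 44.3 and 35.9 CPM (log2 change -2.25 with SE 0.24, adjusted p = 0.000175). Bhlhe41, another repressor of the loop, fell from 74.4 and 52.4 CPM to 10.6 and 6.77 CPM (log2 change -2.87 with SE 0.25, adjusted p = 6.42e-05). Both PH libraries lay below both quiescent libraries for each. The E-box CACGTG, read by the CLOCK and BMAL1 dimer, was in 5 of 16 promoters of this list (31.2%), beside 7.24% of all promoters.

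The greatest fall among genes at 20 CPM or more in quiescence was that of Rgs16, outside these lists and a regulator of G protein signalling, from 77.1 and 35.2 CPM to 0.554 and 0.0921 CPM, 175-fold lower (log2 change -7.45 with SE 0.56, adjusted p = 2.39e-05). Akr1e1, an aldo-keto reductase, followed among protein-coding genes, from 32.9 and 20.96 CPM to 0.503 and 1.01 CPM (log2 change -5.12 with SE 0.37, adjusted p = 1.91e-05). It stood at 0.633 CPM and 1.25 CPM in the Smo (+) libraries, so it was high only in the 2 quiescent Smo (-) libraries of this table. Car3, carbonic anhydrase 3 and one of the most abundant transcripts, fell from 6047 and 4955 CPM to 893 and 501 CPM (log2 change -2.98 with SE 0.33, adjusted p = 0.000207). Arrdc3, an arrestin-domain protein, fell from 367 and 199 CPM to 27.7 and 13.3 CPM (log2 change -3.79 with SE 0.38, adjusted p = 0.000134), and Inmt, a methyltransferase, from 492 and 426 CPM to 39.1 and 6.86 CPM (log2 change -4.32 with SE 0.62, adjusted p = 0.000933). The promoters of the 2 leading genes carried CCAAT boxes (capitals, with a CHR word in Rgs16 as well) and no E-box CACGTG. Rgs16 is at chr1:153740103-153740402, plus strand, and Akr1e1 at chr13:4609115-4609414, minus strand.
Rgs16: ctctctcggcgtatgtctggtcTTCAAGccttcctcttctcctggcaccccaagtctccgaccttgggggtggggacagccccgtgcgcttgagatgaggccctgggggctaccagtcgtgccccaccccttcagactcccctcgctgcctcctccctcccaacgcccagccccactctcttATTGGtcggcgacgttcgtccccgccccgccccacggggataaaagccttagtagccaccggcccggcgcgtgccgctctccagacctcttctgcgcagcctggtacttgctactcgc
Akr1e1: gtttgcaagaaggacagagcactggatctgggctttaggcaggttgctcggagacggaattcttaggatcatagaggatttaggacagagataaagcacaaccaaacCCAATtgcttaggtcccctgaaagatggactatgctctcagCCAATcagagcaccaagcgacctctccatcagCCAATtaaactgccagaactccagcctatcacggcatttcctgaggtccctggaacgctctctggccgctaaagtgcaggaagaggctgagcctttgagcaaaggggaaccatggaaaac

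Against the virus-matched Smo (+) mice, the Smo (-) response was called higher for 628 genes (4.60% of those tested) and lower for 838 (6.14%). This test rests on 1 Smo (+) library at each time, assumed to vary like the Smo (-) libraries, and on the 0 h library that stood apart. Without quiescent Smo (-) replicate 2 it called 1766 and 1985. Hsp90aa1, a cytosolic chaperone, rose in Smo (-) from 80.2 and 87.99 CPM to 297 and 336 CPM and went from 7.91 CPM to 434 CPM in Smo (+), and the responses differed (-3.87, SE 0.32, adjusted p = 0.00228). The Smo (+) library lay about an order of magnitude below the Smo (-) libraries at 0 h and above both at 48 h. Idi1 went from 24.4 CPM to 74.6 CPM in Smo (+), against the fall described for Smo (-) (-4.22, SE 0.30, adjusted p = 0.00162). Here the Smo (+) library at 48 h exceeded both Smo (-) PH libraries, and that at 0 h lay below both quiescent Smo (-) libraries. Lyz2, lysozyme of macrophages, rose in Smo (-) from 7.25 and 10.1 CPM to 21.99 and 25.1 CPM and went from 71.2 CPM to 21.2 CPM in Smo (+) (3.19, SE 0.33, adjusted p = 0.00413). Of the 14 Kupffer markers 12 had a response called higher than in Smo (+). Of 61 mitosis genes 2 had a response called higher and 0 lower, and of 36 replication genes 0 and 1.

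**Figure D4:**
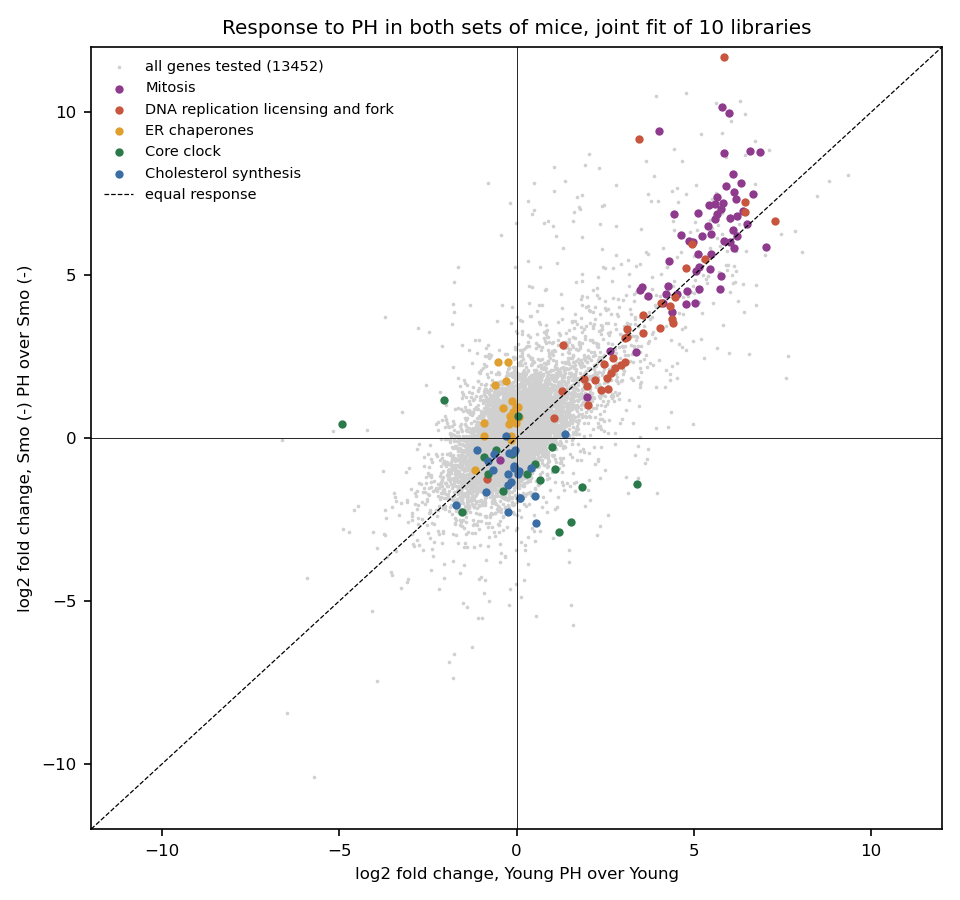
Log2 fold change with PH in Smo (-) against that in Young for 13452 genes tested in both fits, with 5 lists in colour and a dashed line of equal response. Mitosis and replication genes lie around the line at its upper end. Of 19 core clock genes 10 were called below the line, and of 20 ER chaperones 12 above it. Across genes, which are not independent replicates, r = 0.713, with the Smo (-) change from the fit of 6 libraries and not the plotted joint fit.

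Against Young mice, which share no library with the Smo (-) response, the joint fit of 10 libraries called the Smo (-) response higher for 838 genes (5.57% of 15038 tested) and lower for 660 (4.39%, or 9.96% in either direction). With another scaling (relative log expression) these were 686 and 812, so the balance of the 2 directions depended on scaling. Here table, virus, strain source and Smo deletion cannot be told apart. The Young libraries held 25.2% to 33.9% of their pairs outside genes and Malat1 at 3487 to 6004 CPM, against 4.26% to 6.61% and 123 to 682 CPM in Smo (-), and the part of this in the differences was not tested. Across 13452 genes the responses correlated with r = 0.713 and rho = 0.578, as a description. The Smo (-) changes here were those of the fit of 6 libraries. Of the genes called in Smo (-) 61.6% were called with the same sign in Young, and of those called in Young 44.1% were in Smo (-), while 143 were called with opposite signs.

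Proliferative genes differed from Young to an extent that varied by list. The median difference over the 61 mitosis genes was 0.73 with 1 called higher and 0 lower, and over the 36 replication genes -0.27 with 3 and 3, beside 9.96% of all genes called either way. Of 21 cyclins and kinases 2 were called higher and 2 lower, and of 20 E2F, retinoblastoma, Myb and Foxm1 factors 0 higher and 3 lower. Wee1 had the smallest p of all 15038 genes. In the joint scaling Wee1 rose in Young from 3.34, 3.03 and 3.47 CPM to 36.9, 52.4 and 36.9 CPM, and in Smo (-) it stood at 55.6 and 41.2 CPM and then 31.9 and 30.3 CPM (-4.32, SE 0.26, adjusted p = 4.11e-06). The quiescent Smo (-) libraries held Wee1 within or above the range of the regenerating Young libraries. Per3 and Ciart of the core clock, given below, also rose in Young and were lower after PH in Smo (-). The hour of harvest cannot be told apart from the difference for Wee1 either. Ccne1, cyclin E1 of the G1/S transition, rose in Young from 0.461, 0.897 and 0.457 CPM to 23.9, 22.9 and 23.8 CPM and in Smo (-) from 4.06 and 3.41 CPM to 20.3 and 20.7 CPM (-2.82, SE 0.31, adjusted p = 0.000354). Quiescent Smo (-) libraries held more Ccne1 than any quiescent Young library, and Smo (-) PH libraries less than any Young PH library.

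Core clock genes had responses unlike those of Young, and here too the hour of harvest, not given for either table, cannot be told apart from the difference. The Smo (-) response was called lower than that of Young for 10 of 19 core clock genes and higher for 3. Over all genes 4.39% were called lower and 5.57% higher. In Young 7 rose and 6 fell, beside 19.7% and 21.5% of all genes. Dbp in Young went from 15.2, 16.9 and 18.97 CPM to 21.6, 58.97 and 67.9 CPM, and in Smo (-) from 497 and 405 CPM to 73.3 and 77.96 CPM (-4.12, SE 0.48, adjusted p = 0.000523). Dbp was thus higher in quiescent Smo (-) than in any Young library. Per3, a period protein, went in Young from 10.7, 11.03 and 12.4 CPM to 29.9, 47.7 and 44.1 CPM, and in Smo (-) from 48.6 and 71.3 CPM to 19.3 and 22.7 CPM (-3.35, SE 0.29, adjusted p = 5.06e-05). Ciart, a circadian repressor, went in Young from 1.21, 1.79 and 2.53 CPM to 15.01, 20.2 and 23.1 CPM, and in Smo (-) from 15.5 and 30.01 CPM to 8.01 and 9.202 CPM (-4.78, SE 0.44, adjusted p = 7.07e-05). Arntl, which encodes BMAL1 of the positive arm, went in Young from 37.6, 24.1 and 34.5 CPM to 12.4, 7.096 and 4.04 CPM, and in Smo (-) from 1.28 and 0.806 CPM to 2.31 and 2.43 CPM (3.21, SE 0.63, adjusted p = 0.0082). In quiescence Dbp, Per3 and Ciart were thus high and Arntl low in Smo (-), and the reverse held in Young. In the Smo (+) pair Dbp went from 375 CPM to 41.1 CPM and Per3 from 73.5 CPM to 20.8 CPM, in the direction seen in Smo (-). The list as a whole did not follow these genes. Its median log2 fold change was 0.109 in the Smo (+) pair, with 1 library at each time, and -0.951 in Smo (-).

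**Figure D5:**
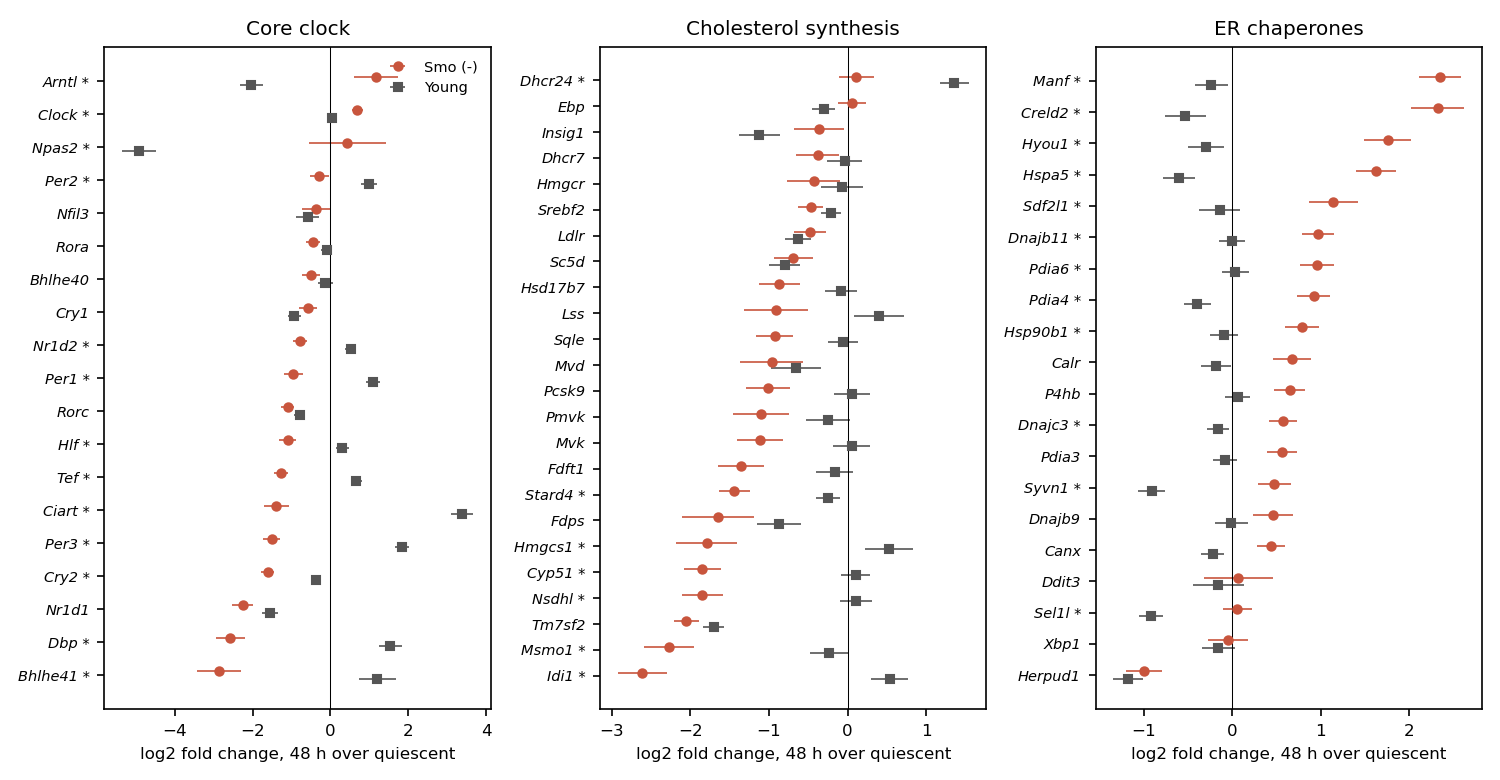
Log2 fold change with PH in Smo (-) (red) and Young (grey) from the joint fit, with bars of 1 SE, for the core clock, cholesterol synthesis and ER chaperone lists, a star marking a response called different. Dbp, Per3 and Ciart lie on opposite sides of 0 in the groups, Idi1 falls in Smo (-) and not in Young, and Hspa5 and Manf lie higher in Smo (-).

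Other differences from Young were of metabolic and structural genes. Hspa5 changed in Young by a log2 fold change of -0.603, and its response differed (2.23, SE 0.29, adjusted p = 0.000904). Manf changed by -0.24 and differed likewise (2.58, SE 0.30, adjusted p = 0.000523). Tubb2a, a beta-tubulin, stood in Young at 82.6, 47.6 and 67.3 CPM and then 66.7, 63.9 and 63.6 CPM, whereas in Smo (-) it rose from 10.6 and 10.1 CPM to 109 and 91.7 CPM (3.3003, SE 0.27, adjusted p = 5.04e-05). Lpl, lipoprotein lipase, stood in Young at 10.9, 13.7 and 9.32 CPM and 6.85, 5.58 and 6.28 CPM, and rose in Smo (-) from 7.14 and 8.25 CPM to 40.3 and 64.2 CPM (3.62, SE 0.31, adjusted p = 5.04e-05). Lpl also differed from Smo (+), where it went from 22.1 CPM to 11.7 CPM (3.696, SE 0.42, adjusted p = 0.00678). For these genes the 2 Smo (-) PH libraries stood above the 2 quiescent ones in each case.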

How the data were processed

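Poly(A) libraries of freshly isolated hepatocytes were sequenced as read pairs. Per the methods and the submitters' processing notes, the authors trimmed reads with Trim Galore, aligned them to mm10 with STAR 2.5.0c, dropped duplicate pairs (Picard) and made gene counts in HTSeq; the annotation release and strand setting are not given in the sources used here, so reads of a gene and an overlapping antisense gene cannot be told apart. The deposited values are the authors' raw counts per gene, in 1 table for the 6 Smo libraries and 1 for the 12 Young and Old libraries. In the Smo table the name column was misaligned (1.53% of names equalled the reference for their ID, against 96.7% in the other table), so genes were named by Ensembl ID. No sample column was left out other than the 6 Old libraries, which were not used here. Rows that name no gene were kept out of library sizes, and pairs outside genes were 4.20% to 9.20% of the Smo table.

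Counts were tested in R 4.3.3 with edgeR 4.0.16 (quasi-likelihood, TMM scaling, and genes kept by filterByExpr at count and total minimums of 10 and 15), 1 mean per group, on all 6 Smo libraries (2 residual degrees of freedom, biological coefficient of variation 0.168), with Benjamini-Hochberg adjustment. The difference from Smo (+) was an interaction in that fit, and that from Young an interaction in a joint fit of 10 libraries (0.155, 6 residual degrees of freedom). Alternatives were DESeq2 1.42.0, limma-voom (limma 3.58.1), other scalings and filters, each library left out, a replicate block, and an additive model. The replicate numbers were checked for pairing, and deviations of same-numbered samples did not move together (r = -0.0394 in Smo (-)). Scripts were tested on simulated data. A floor of 3 counts set bounds for genes at 0.

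Named genes were those the study names, up to 15 called genes each way with the greatest change at a mean of at least 20 CPM in the higher group and no overlap, up to 6 called genes per list by p, and up to 10 each way per difference. Pttg1, Mcm10, Herpud1, Hnf4a, Arntl and Wee1 in the response to PH were singled out after their values were seen. The 61 lists (1190 symbols, 8 unmatched) and the comparison itself were chosen with earlier results of these data known.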

Additional observations from a re-analysis of the deposited data

Results flagged for a closer look

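Responses to PH that differed between Smo (-) and another set of mice, by the interaction test, were picked out for a closer look. Against Smo (+), 628 genes had a response called higher and 838 lower, with 1 Smo (+) library at each time. Against Young the counts were 838 and 660.

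The genes with the smallest p whose response was higher than in Smo (+), as differences on the log2 scale, were Syt12, a synaptotagmin (3.84), Lpl, lipoprotein lipase (3.696), Inhba, an activin subunit (3.34), Lyz2, lysozyme (3.19), Rap1gap (2.75), Cox6b2, a subunit of cytochrome oxidase (2.59), Pkm, pyruvate kinase (2.46), Slc16a5, a monocarboxylate transporter (2.34), Ahnak (2.32) and H2-Q7, a class I histocompatibility gene (2.05). Lower were Igfbp1, an IGF binding protein (-5.88), Fos (-5.35), Rrp12 (-4.31) and Rrp1 (-3.19), both of ribosome biogenesis, Idi1 (-4.22), Hsp90aa1 (-3.87), Jun (-3.67), Sik1, a kinase (-2.78), Zfp36 (-2.69) and Junb (-2.604). Igfbp1 stood at 0.633 CPM and 44.6 CPM in Smo (+) at 0 h and 48 h, and at 4.19 and 3.05 CPM and 4.48 and 4.15 CPM in Smo (-). Fos stood at 2.37 CPM and 57.8 CPM in Smo (+), and at 36.2 and 19.4 CPM and 17.7 and 15.4 CPM in Smo (-). Fos, Jun, Junb, Zfp36, Hsp90aa1, Idi1 and Igfbp1 were lower in Smo (+) at 0 h than in both quiescent Smo (-) libraries. That Smo (+) library was the one with 22.5% mitochondrial counts. The part of that library in these differences was not tested.

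Against Young, the responses of Pitx3 (6.55), Lpl (3.62), Tubb2a (3.3003), Insc (2.86), Cldn1, a tight junction claudin (2.63), Insig2, which retains SREBP factors in the ER (2.36), Pde9a, a phosphodiesterase (2.202), Lrfn3 (2.13), Ddc, an amino acid decarboxylase (2.06) and Car14, a carbonic anhydrase (2.04), were higher. Those of Akr1e1 (-4.93), Ciart (-4.78), Usp2, a ubiquitin protease (-4.66), Wee1 (-4.32), Per3 (-3.35), Ccne1 (-2.82), Gstp3, a glutathione transferase (-2.53), Sox12 (-1.91), Klf13 (-1.71) and Dedd2 (-1.69) were lower. Insig2 stood at 121 and 91.5 CPM before and 208 and 172 CPM after PH in Smo (-), and at 152, 157 and 167 CPM and 63.9, 44.03 and 58.2 CPM in Young. Gstp3 stood at 20.3, 12.7 and 14.4 CPM and 25.7, 32.6 and 31.9997 CPM in Young and at 1231 and 1153 CPM and 449 and 338 CPM in Smo (-), so the tables differed in level before PH as well. Usp2 stood at 63.6 and 111 CPM before and 29.9 and 44.8 CPM after PH in Smo (-), and at 4.76, 6.83 and 7.095 CPM and 48.4, 79.4 and 74.6 CPM in Young. Usp2 thus moved as Per3 and Ciart did, and the hour of harvest cannot be told apart from its difference.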

How the results depend on the processing

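The Smo (-) response to PH kept within 1.5 times its counts of 2180 and 1944 genes under DESeq2, limma-voom, other scaling and both filters. With virus and time as additive terms the counts fell to 1196 and 926, and 110 of 309 called genes checked lost their call. Leaving out each Smo (-) library gave 1364 to 2254 higher and 1118 to 2089 lower genes, the fewest without PH replicate 2. Of 309 called genes checked, 241 kept their call in all 4 leave-out fits, and 18 lost it under DESeq2. The difference from Smo (+) gave 1354 and 1637 genes with no filter, and 681 to 1766 higher and 586 to 1985 lower in the leave-out fits, the most without quiescent Smo (-) replicate 2. That from Young gave 1098 lower genes under DESeq2 and 1031 with no filter, and 358 to 1110 higher and 243 to 859 lower with a library left out. Relative log expression scaling turned its split from 55.9% to 45.8% higher. The log2 changes of Ihh, Shh and Angpt2, none of them called, changed sign when 1 PH library was left out, with ranges over the leave-out fits of -0.572 to 0.0183 for Ihh (above 0 without PH replicate 2), -1.27 to 0.0287 for Shh (above 0 without PH replicate 1) and -0.29 to 0.521 for Angpt2 (below 0 without PH replicate 1). In the additive fit Ihh was at 0.0602, Angpt2 at -0.388 and Wee1 at 0.11. The causes of these shifts were not tested. With 2 libraries a group and depths of 16835686 to 19151731 counts, changes of genes under about 1 CPM rest on few counts.

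The replicate numbers are shared across groups but were not found to pair the samples. With the replicate block the response had 2411 higher and 2078 lower genes, the difference from Smo (+) 1294 and 1366, and that from Young 633 and 443.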

Other observations

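Of 20 aminoacyl-tRNA synthetases 9 rose and none fell, 4 without PH replicate 1 and 5 without PH replicate 2. Vars, which charges valine, rose from 90.98 and 86.2 CPM to 184 and 219 CPM (log2 change 1.19 with SE 0.17, adjusted p = 0.000779). Asns, asparagine synthetase and an ATF4 target, rose from 9.17 and 13.3 CPM to 37.99 and 44.04 CPM (log2 change 1.87 with SE 0.21, adjusted p = 0.000207). Trib3, a pseudokinase induced by ATF4, moved from 16.4 and 15.8 CPM to 3.07 and 2.63 CPM (log2 change -2.501 with SE 0.23, adjusted p = 8.06e-05). Over the list of ATF4 targets 3 of 19 rose and 4 fell, near the 16.0% higher and 14.2% lower of all genes tested.

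Of 16 genes of histocompatibility and antigen processing 3 were called higher, 1 without either PH replicate, and 4 lower, with a median log2 fold change of -0.0666, so the list as a whole lay near the background. The 4 called lower were Cd74, H2-Aa, H2-Ab1 and H2-Eb1, of class II presentation, and the call of Cd74 was lost without PH replicate 1 (adjusted p = 0.082). H2-Ab1 went from 20.5 and 26.02 CPM to 6.04 and 7.42 CPM (log2 change -1.79 with SE 0.19, adjusted p = 0.000175), and H2-Aa from 15.5 and 17.4 CPM to 2.77 and 5.57 CPM (log2 change -1.97 with SE 0.28, adjusted p = 0.000849). The class I gene H2-Q7 went from 17.8 and 18.2 CPM to 33.01 and 34.6 CPM (log2 change 0.91 with SE 0.15, adjusted p = 0.00213), and its reads can be shared with near-identical class I genes. Of 24 interferon-stimulated genes 4 rose (16.0% of all genes did) and 1 fell, the former 1 without PH replicate 2 and 2 without quiescent replicate 2.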
